A study of Rattus norvegicus with 9 samples.

Results

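Blood RNA of rats given hydrocortisone and epinephrine before a stroke was compared with blood RNA of rats that had sham surgery. The comparison used the 3 YDBS/MCAO arrays and the 3 Sham arrays among the 9 arrays of the series, and every one of the 18166 genes that a single array symbol names, each read from its brightest transcript cluster. YDBS, Yin deficiency blood stasis, is a syndrome of traditional Chinese medicine. In this model it was set up with intramuscular hydrocortisone at 45 mg/kg a day for 13 days and then subcutaneous epinephrine at 0.36 mg/kg for 1 day, and stroke followed by occlusion of the middle cerebral artery (MCAO) and 24 h of reperfusion. Sham rats had the same surgery without the occluding filament and neither hormone. The third group, QDBS/MCAO (Qi deficiency blood stasis), swam to exhaustion for 21 days before the same stroke, and is compared here directly with YDBS/MCAO. Its arrays also entered the estimate of spread behind the tests against Sham, the choice of the brightest cluster and the mean signal over the 9 arrays. All rats were male Sprague-Dawley rats of 250 to 280 g, the arrays are labelled as biological replicates, and citrated blood came from the abdominal aorta. No group had the hormones without the stroke or the stroke without a pretreatment, so the effects of hydrocortisone, epinephrine and MCAO against Sham cannot be told apart.

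Hydrocortisone binds the glucocorticoid receptor, which leaves a complex with heat shock proteins in the cytosol, enters the nucleus and raises or lowers the transcription of its target genes. In blood, glucocorticoids are known to mobilise neutrophils and to lower the numbers of circulating lymphocytes and eosinophils. Epinephrine acts on adrenergic receptors, whose beta class raises cyclic AMP and activates protein kinase A. Stroke itself is followed by the release of neutrophils and monocytes into the circulation and by signals of interleukin 1 and of Toll-like receptors.

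Most genes that met the criteria were higher in the YDBS/MCAO group. With limma and the criteria of a Benjamini-Hochberg FDR under 0.05 and an absolute log2 fold change (log2 FC) over 1, 1892 of 18166 genes were up-regulated (10.4%) and 167 down-regulated (0.919%), together 11.3%. With the FDR alone the balance was different, with 3723 genes higher (20.5%) and 4602 lower (25.3%), and the median log2 FC of all genes was -0.16. All 3 YDBS/MCAO arrays lay above all 3 Sham arrays for 23.4% of genes and below them for 33.3%. The arrays were normalized by the authors, yet their distributions still differed: the 75th percentile of all clusters was 5.28 to 5.37 on Sham arrays and 5.53 to 5.55 on YDBS/MCAO arrays, and the median 4.15 to 4.21 against 3.94 to 4.01. The split of calls moved with the scaling. Up-regulated genes were 91.9% of calls as deposited, 75.1% after quantile normalization over genes (1459 up and 484 down), 72.0% with arrays centred on the 75th percentile of all clusters (1415 and 550) and 39.8% with arrays centred on the 75th percentile of the 18166 genes (1081 and 1637). Under that last setting, all 1081 up-regulated genes were among the 1892, and all 167 down-regulated genes were called again. Below, "other scalings" means these, array medians of genes or of all clusters, and cyclic loess. Counts in gene lists are given beside their range under these 6 scalings, or without the array that moved them, where a count moved by over 1.5 times. Each count is to be read beside the shares of all genes as deposited, 10.4% up-regulated and 0.919% down-regulated. Medians of gene lists are relative to the median of all genes and were computed again under the 4 scalings over genes.

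Sham replicate 2 stood apart from the other Sham arrays. It correlated with them at 0.963 to 0.965, whereas Sham replicates 1 and 3 correlated at 0.989, as the YDBS/MCAO arrays did among themselves (0.989 to 0.991). Among the 1892 up-regulated genes it had the lowest Sham value for 1547 (81.8%), against 40.3% of all genes. Without it 1549 genes were up-regulated and 144 down-regulated, of which 1517 and 109 were among the original calls. The other 5 arrays left out one at a time gave 1835 to 2092 up-regulated genes and 168 to 258 down-regulated ones, the last without Sham replicate 1. Per-array values below are log2 signals in replicate order, 1 to 3, and errors are standard errors of the log2 FC with n = 3 arrays a group.

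**Figure D1:**
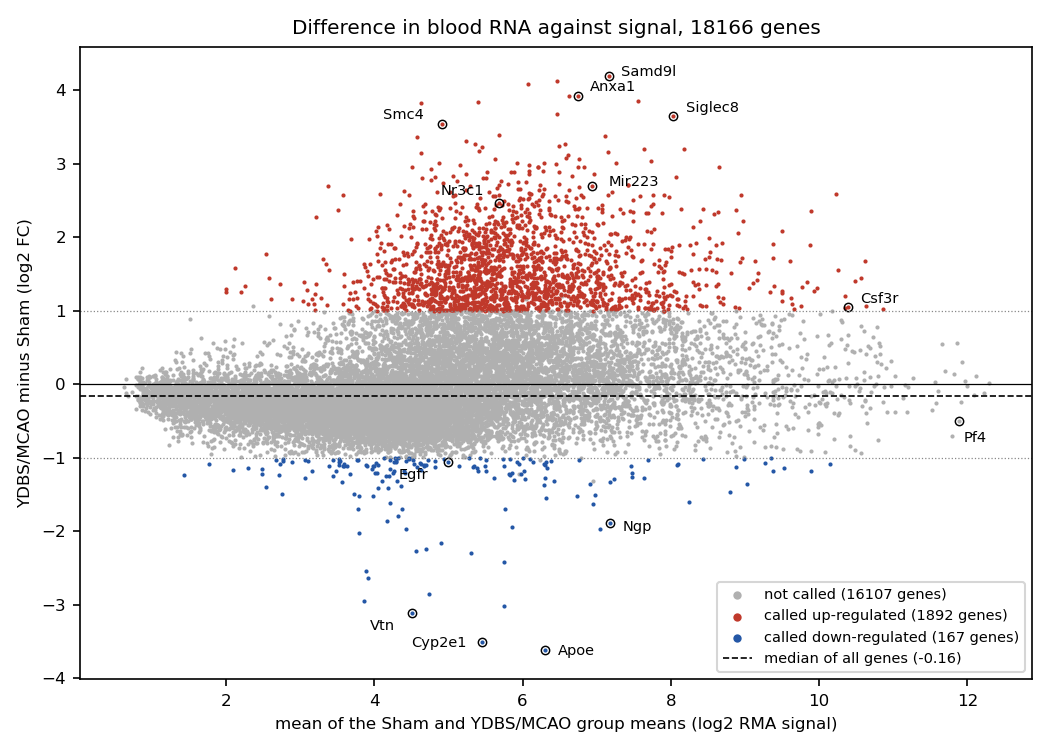
The log2 FC of YDBS/MCAO against Sham for each of 18166 genes (vertical axis) is plotted against the mean log2 signal of both groups (horizontal axis), with called genes in colour, dotted lines at the fold criterion and a dashed line at the median of all genes. Up-regulated genes lie mainly at signals above 4, and the median of all genes lies at -0.16.

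Among called genes with no overlap between groups, several of the largest rises were in genes with no list of their own. Resf1, a factor that silences retroelements, read 3.87, 3.55 and 2.998 on Sham arrays and 7.28, 7.55 and 7.13 on YDBS/MCAO arrays, 14.4-fold higher (log2 FC 3.85 ± 0.25, FDR = 2.95e-06 from limma). Cast encodes calpastatin, the inhibitor of the calpain proteases, and was 12.8-fold higher (Sham 5.12, 3.89 and 4.86, YDBS/MCAO 8.25, 8.30 and 8.34; FDR = 4.83e-06). Klra2, a lectin-like receptor of the Ly49 family of natural killer cells, rose from 3.26, 2.20 and 2.69 to 6.15, 7.08 and 6.41, 14.2-fold. Siglec8, a sialic acid-binding receptor, read 6.51, 5.66 and 6.46 on Sham and 9.46, 9.83 and 10.29 on YDBS/MCAO arrays (12.6-fold, FDR = 7.20e-05). In each of these genes the lowest YDBS/MCAO array was more than 2 log2 units above the highest Sham array. Ptprc, the common leukocyte antigen CD45, rose 7.75-fold (Sham 7.67, 6.16 and 7.69, YDBS/MCAO 10.20, 10.13 and 10.06). Among the falls outside the liver lists, Cyp2a3, a cytochrome P450, was 7.21-fold lower (Sham 5.82, 6.83 and 5.86, YDBS/MCAO 3.14, 3.14 and 3.67), Cdo1, cysteine dioxygenase, 5.35-fold lower, and S100a1, a calcium-binding protein, 4.91-fold lower (FDR at most 9.31e-05).

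The glucocorticoid receptor and the chaperones that hold it were higher in YDBS/MCAO blood. Nr3c1, the receptor itself, read 5.09, 3.87 and 4.41 on Sham arrays and 7.02, 6.93 and 6.80 on YDBS/MCAO arrays. It was 5.51-fold higher (log2 FC 2.46 ± 0.25, FDR = 3.04e-05), and the groups did not overlap. The list held 14 measured genes: 2 receptors, 6 chaperones and immunophilins, 4 coactivators and corepressors and 2 enzymes that convert cortisol and cortisone. Of the 14 genes 8 were up-regulated and none down-regulated, the median lying 1.26 above that of all genes. Of the 6 chaperones and immunophilins 5 were up-regulated, and 3 to 5 under other scalings. Stip1, which hands clients from Hsp70 to Hsp90, rose from 5.48, 4.88 and 5.28 to 7.30, 7.54 and 7.72 (4.96-fold, FDR = 5.67e-06). Hspa8, the constitutive Hsp70, rose from 9.96, 9.47 and 9.93 to 11.47, 11.45 and 11.46 (3.19-fold) with nearly equal values on the 3 YDBS/MCAO arrays. Hsp90ab1, the constitutive Hsp90, was 2.23-fold higher (FDR = 6.67e-05). The corepressor gene Ncor1 was 3.46-fold higher and the coactivator gene Ncoa1 2.28-fold higher (FDR = 0.000111 and 0.000660). Nr3c2, the mineralocorticoid receptor, had a log2 FC of -0.12 (FDR = 0.450). Hsd11b2, which inactivates cortisol, had a log2 FC of -0.53 with all YDBS/MCAO arrays below Sham (FDR = 0.00240), and Hsd11b1, which runs the reaction the other way, -0.25 (FDR = 0.101). Under other scalings 5 to 8 of the 14 genes were up-regulated. The calls of Hsp90ab1 and Ncoa1 ended under several of them, at log2 FC as low as 0.75 and 0.78.

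Genes that glucocorticoids induce divided between rises, falls and genes without a call. Of 25 such genes 4 were up-regulated (16.0%, where 10.4% of all genes were), 2 were down-regulated and 19 were not called. The median relative to all genes was 0.22, which turned to -0.09 after quantile normalization and -0.09 after cyclic loess. Anxa1, annexin A1, which limits the emigration of neutrophils, read 5.38, 4.15 and 4.81 on Sham and 8.26, 8.91 and 8.95 on YDBS/MCAO arrays (15.2-fold, log2 FC 3.93 ± 0.37, FDR = 2.00e-05). Il1r2, the decoy receptor of interleukin 1, rose from 6.70, 6.30 and 6.58 to 8.31, 9.30 and 9.25, 5.36-fold. Rgs2, a regulator of G protein signalling, rose from 5.31, 4.58 and 5.59 to 7.41, 7.70 and 7.55, 5.25-fold. Fkbp5, the immunophilin that lowers the affinity of the receptor for its hormone, read 5.73, 5.30 and 5.96 and 7.77, 7.89 and 6.56. YDBS/MCAO replicate 3 stood well below the others, and the 3.36-fold difference (FDR = 0.00112) was not called by the methods' t-test (FDR = 0.0702). Against these, Tsc22d3, the leucine zipper protein GILZ, read 8.77, 8.64 and 8.71 on Sham and 8.64, 8.81 and 8.45 on YDBS/MCAO arrays, with overlapping groups (log2 FC -0.08 ± 0.12, FDR = 0.622). Per1, a clock gene with glucocorticoid response elements, had a log2 FC of -0.58 ± 0.26 (FDR = 0.0849), and Klf9 of 0.61 ± 0.25 (FDR = 0.0691). After quantile normalization Per1 was down-regulated (log2 FC -1.002). Dusp1, a phosphatase that shuts off MAP kinases, and Sgk1, a serum- and glucocorticoid-regulated kinase, had values above all Sham arrays but log2 FC of only 0.51 and 0.78 (FDR = 0.0319 and 0.0118). Zfp36 and Nfkbia, which restrain inflammatory mRNAs and NF-kB, had log2 FC of 0.41 and -0.05. The genes down-regulated here are glucocorticoid targets of the liver: Tat, tyrosine aminotransferase, fell from 4.74, 4.43 and 4.48 to 3.11, 2.85 and 3.13 (2.86-fold lower), and Pck1, of gluconeogenesis, from 5.42, 4.70 and 5.06 to 3.78, 3.60 and 3.65 (2.61-fold lower). Against QDBS/MCAO, which received no hormone, Nr3c1 differed by a log2 FC of 0.18 (FDR = 0.928), Anxa1 by 1.20 (FDR = 0.204), Rgs2 by 0.82 (FDR = 0.144) and Fkbp5 by 0.93 (FDR = 0.244), none of which passed. Il1r2 was higher than in QDBS/MCAO by a log2 FC of 1.83 and was the 1 gene of the list that passed. That call ended with the methods' t-test (FDR = 0.374). The palindromic glucocorticoid response element, AGAACA and TGTTCT with any 3 bases between, was in none of the 22 promoters of the list that RefSeq gave and in 1 of 27457 promoters of the genome (250 bases before the start, both strands). An exact string that rare would be missing from almost any 22 promoters, so its absence does not tell whether these genes hold response elements.

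**Figure D2:**
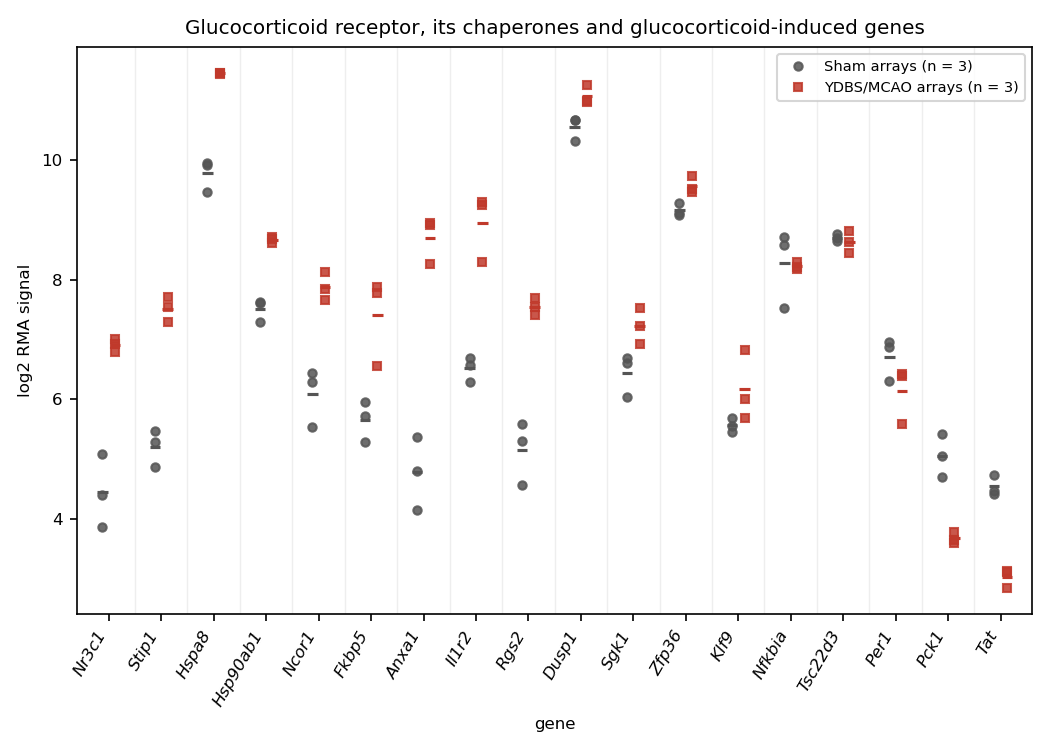
Log2 signal of each Sham and YDBS/MCAO array (points) and group mean (bars) for the glucocorticoid receptor, its chaperones, the corepressor gene Ncor1 and genes that glucocorticoids induce. Nr3c1, its chaperones, Anxa1, Il1r2 and Rgs2 lie apart between groups, Nfkbia, Tsc22d3 and Per1 overlap, and Tat and Pck1 lie lower on YDBS/MCAO arrays.

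Adrenergic receptors were not called in either direction as deposited. Of the 7 measured receptors 4 were lower by the FDR alone, as were 25.3% of all genes, and log2 FC lay between -0.68 and -0.30. Adrb1, the beta 1 receptor, read 5.41, 5.69 and 5.50 on Sham and 5.01, 4.68 and 5.09 on YDBS/MCAO arrays (log2 FC -0.60 ± 0.14, FDR = 0.00632). Over all 43 genes of the pathway 4 were up-regulated and none down-regulated, with a relative median of -0.05 and a share of up-regulated genes (9.30%) near that of all genes. These counts turned with the scaling, to 2 up-regulated and 3 down-regulated after 75th percentile centring over genes, 1 of the latter a receptor, 2 and 2 after quantile normalization and 2 and 1 after cyclic loess. Without Sham replicate 3, 1 gene was down-regulated. Prkacb, a catalytic subunit of protein kinase A, rose from 6.04, 5.22 and 6.08 to 7.24, 7.27 and 7.31 (2.81-fold, FDR = 0.000218). Creb1, the transcription factor that the kinase activates, rose from 5.53, 4.91 and 5.36 to 6.64, 6.70 and 6.83 (2.75-fold, FDR = 8.60e-05). Grk5, a kinase that desensitises the receptors, was 2.47-fold higher as deposited, a call that ended with 3 other scalings (log2 FC as low as 0.83).

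Neutrophil receptors were higher, while granule genes moved in both directions. Of 31 neutrophil genes 14 were up-regulated and 2 down-regulated, with a relative median of 0.89. Of 10 receptors 7 rose. Under other scalings 10 to 15 neutrophil genes were up-regulated, 4 to 7 of them receptors, and 1 to 6 down-regulated. In whole blood a change in cell numbers and a change in RNA per cell cannot be told apart. Cxcr2, the chemokine receptor that releases neutrophils from the marrow, read 8.53, 8.24 and 8.61 on Sham and 10.25, 10.59 and 10.80 on YDBS/MCAO arrays (4.25-fold, log2 FC 2.09 ± 0.23, FDR = 4.92e-05). Fpr1, a receptor of bacterial formyl peptides, rose from 4.96, 4.80 and 5.18 to 7.11, 7.90 and 7.62, 5.90-fold. Mcemp1, a membrane protein of myeloid cells, rose from 6.88, 6.04 and 6.93 to 8.62, 9.27 and 9.67, 5.95-fold. In none of these did the groups overlap. Csf3r, the receptor of granulocyte colony-stimulating factor and the marker that defines the list, was 2.07-fold higher (Sham 9.83, 9.998 and 9.75, YDBS/MCAO 10.71, 10.95 and 11.07), close to the criterion. Its call ended without Sham replicate 3 (log2 FC 0.996), without YDBS/MCAO replicate 3 (0.97) and with 4 other scalings. Among granule genes, Mmp8, a collagenase, rose from 7.99, 7.60 and 7.98 to 9.35, 10.21 and 10.70 (4.68-fold, FDR = 0.000585). S100a8 and S100a9 form calprotectin, a complex of the cytosol rather than of granules. They were 4.15-fold and 2.73-fold higher (FDR = 0.000419 and 0.000839). Ngp, a granule protein of immature neutrophils, fell instead, from 8.35, 7.77 and 8.24 to 5.90, 6.60 and 6.20 (3.69-fold lower, FDR = 0.00760). Lcn2, lipocalin 2 of secondary granules, fell from 6.67, 6.49 and 6.65 to 5.24, 5.49 and 6.04 (2.02-fold). Its call ended with the methods' t-test and with median centring over genes (log2 FC -0.93) or over all clusters (-0.81). It ended also without any one of Sham replicates 1 and 3 and YDBS/MCAO replicates 1 and 2 (-0.84 to -0.99). Camp, a cathelicidin of the same granules, had a log2 FC of -0.78 with all YDBS/MCAO arrays below Sham (FDR = 0.0389). It was down-regulated after 75th percentile centring over genes, quantile normalization and cyclic loess (log2 FC -1.12 to -1.21). The genes of primary granules, Mpo and Elane, overlapped between groups, with log2 FC of -0.20 and 0.03. The kinase gene Lyn (3.72-fold), the oxidase gene Cybb (2.92-fold) and its partner Ncf4 (2.88-fold) were up-regulated as well.

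Mir223, the gene of a miRNA known from neutrophils and monocytes, was among the 3 up-regulated miRNA genes. It read 5.66, 5.33 and 5.81 on Sham and 7.56, 8.85 and 8.46 on YDBS/MCAO arrays (6.46-fold, log2 FC 2.69 ± 0.38, FDR = 0.000291), with no overlap. A transcript cluster of a miRNA gene reads the primary transcript or hairpin and does not separate its arms. Of 363 miRNA genes measured, 352 of which RefSeq's table holds, 3 were up-regulated (0.826%) and 6 down-regulated (1.65%), and the genes below were chosen after their values were seen. The mature sequences are shown with the seed, bases 2 to 8, in capitals, because the seed decides which mRNAs a miRNA pairs with.
rno-miR-223-3p: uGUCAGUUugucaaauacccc
rno-miR-19b-3p: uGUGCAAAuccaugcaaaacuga
rno-miR-1224: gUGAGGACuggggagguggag
rno-miR-92b-3p: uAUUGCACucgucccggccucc
rno-let-7a-5p: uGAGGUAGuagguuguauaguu
rno-let-7e-5p: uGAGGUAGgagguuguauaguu
rno-miR-138-5p: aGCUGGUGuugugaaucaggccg
rno-miR-181d-5p: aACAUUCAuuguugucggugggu
rno-miR-218a-5p: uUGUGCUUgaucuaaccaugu
The other rises were Mir1224 (4.49, 4.57 and 4.02 on Sham, 5.37, 6.42 and 6.55 on YDBS/MCAO arrays, 3.37-fold) and Mir19b2 (2.18, 2.16 and 2.76 and 3.23, 4.79 and 3.23, 2.62-fold), the latter dim in both groups. The falls were Mir92b (2.46-fold lower), Mir138-2 (2.33-fold), Mirlet7e (2.17-fold), Mir181d (2.15-fold), Mirlet7a1 (2.08-fold) and Mir218-2 (2.00-fold). Both let-7 genes carry the seed GAGGUAG, which 11 measured genes share, and their log2 FC lay between -1.12 and 0.13, and 2 of the 11 were called. Of 6 genes with the seed of miR-92b-3p only Mir92b was called, and of 3 with that of miR-19b-3p only Mir19b2. The calls of Mir223 and Mir138-2 held under every alternative. Those of Mir1224, Mir19b2, Mir92b, Mir181d and Mirlet7a1 ended with the methods' t-test (FDR = 0.0559 to 0.142), and those of Mirlet7e, Mir181d, Mirlet7a1 and Mir218-2 with 1 to 4 other scalings. Without Sham replicate 2 those of Mir181d and Mirlet7a1 ended (log2 FC -0.86 and -0.74), and without YDBS/MCAO replicate 2 those of Mir19b2, Mir181d and Mir218-2 (0.87, -0.93 and -0.95). That of Mir218-2 ended also without Sham replicate 3 (-0.87) and without YDBS/MCAO replicate 1 (-0.99).

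Monocyte receptors and receptors for microbial patterns held some of the largest rises. Igsf6, a receptor-like protein of myeloid cells, read 5.22, 3.49 and 4.50 on Sham and 8.24, 8.70 and 8.65 on YDBS/MCAO arrays (17.5-fold). Clec7a, the lectin Dectin-1 that binds fungal glucans, read 5.78, 5.24 and 5.87 and 8.99, 9.49 and 9.97 (14.5-fold, FDR = 5.67e-06). Ccr2, the receptor that draws monocytes out of the marrow, rose from 5.55, 5.80 and 5.93 to 8.21, 9.18 and 8.92 (8.06-fold, log2 FC 3.01 ± 0.22, FDR = 4.59e-06). Each was separated between the groups by more than 2 log2 units. Clec4e and Clec4d, lectins of mycobacterial glycolipids, were 8.89-fold and 5.21-fold higher, and Fcgr1a, a receptor of IgG, 3.31-fold. The monocyte list as a whole had 6 of 24 genes up-regulated and none down-regulated, all 6 of them receptors. Cd14, its defining marker, read 7.18, 7.27 and 7.22 on Sham and 7.09, 7.30 and 6.29 on YDBS/MCAO arrays and overlapped (log2 FC -0.33 ± 0.25, FDR = 0.284), and so did Csf1r, the receptor that monocytes need to survive (log2 FC -0.18, FDR = 0.477). Of 30 pattern recognition receptors 14 were up-regulated and none down-regulated, with a relative median of 0.93. Tlr13, which senses bacterial ribosomal RNA, rose from 5.26, 3.93 and 5.50 to 7.33, 7.69 and 7.60 (6.26-fold). Tlr1 (3.97-fold) and Tlr6 (3.39-fold), which pair with Tlr2 on lipopeptides, rose too, and Tlr2 itself was 2.45-fold higher. Among lectins, Clec5a rose 3.78-fold and Clec1a 3.68-fold. After 75th percentile centring over genes 9 were up-regulated and 2 down-regulated, with the methods' t-test 8 were up-regulated, and without Sham replicate 3 1 was down-regulated. The call of Tlr1 ended with the methods' t-test (FDR = 0.0505). The call of Tlr2 ended with 1 other scaling (log2 FC as small as 0.91) and with the methods' t-test (FDR = 0.0686).

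Receptors of interleukin 1 and interleukin 18 and parts of the inflammasome rose, while most cytokines were not called. Of 13 cytokine receptors 8 were up-regulated, of 12 inflammasome and adaptor genes 7, and of 15 cytokines 2. Il1b, the interleukin 1 beta that the inflammasome matures, read 7.88, 7.31 and 7.80 on Sham and 9.94, 10.43 and 10.35 on YDBS/MCAO arrays (5.96-fold, log2 FC 2.57 ± 0.29, FDR = 6.26e-05). Il1rn, its natural antagonist, rose from 7.68, 6.99 and 7.62 to 8.55, 9.17 and 9.07 (2.83-fold). The rise of the agonist was thus accompanied by that of the antagonist and of the decoy receptor Il1r2. Il18rap, a chain of the interleukin 18 receptor, rose from 5.04, 4.53 and 5.26 to 7.77, 8.51 and 8.36 (9.64-fold, FDR = 8.83e-06), and its partner Il18r1 3.07-fold. Il1rap, the shared chain of the interleukin 1 receptor, was 3.18-fold higher, Il10rb, a chain of the interleukin 10 receptor, 5.07-fold and Tgfbr1 3.47-fold. Casp1, the protease that cleaves pro-interleukin 1 beta, rose from 5.25, 4.21 and 4.89 to 7.52, 7.74 and 8.12 (8.04-fold, FDR = 1.33e-05). Nlrp3, its sensor, rose from 6.08, 6.17 and 6.07 to 7.51, 8.15 and 7.62 (3.15-fold). Tnf and Il6 were not called (log2 FC -0.05 and -0.33, FDR = 0.849 and 0.0672), with overlapping arrays in both. The relative median of all 40 genes was 0.96, where 17 were up-regulated as deposited and 15 to 20 under other scalings, 3 of which also gave 1 down-regulated gene.

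Chemokine receptors of myeloid cells and several adhesion molecules were higher. Of 41 genes 13 were up-regulated and 1 down-regulated, and after 75th percentile centring over genes 8 and 3. Without Sham replicate 1 or YDBS/MCAO replicate 3, 2 were down-regulated. Ccr1, a receptor of monocytes and neutrophils, read 6.08, 6.06 and 5.97 on Sham arrays, close together, and 8.93, 9.38 and 9.41 on YDBS/MCAO arrays (9.22-fold, FDR = 4.50e-05). Cxcr6, of activated T cells and natural killer cells, was 2.55-fold higher. Cxcr4, which keeps leukocytes in the marrow, overlapped between groups (Sham 8.65, 7.81 and 8.64, YDBS/MCAO 8.41, 8.60 and 8.27, log2 FC 0.06, FDR = 0.812). Among integrins, Itga4 rose from 7.01, 5.74 and 6.82 to 8.99, 8.88 and 8.68 (5.03-fold) and Itgam, the alpha chain of Mac-1, from 6.46, 6.11 and 6.28 to 7.39, 7.83 and 7.98 (2.74-fold). Glg1, a ligand of E-selectin, was 3.17-fold higher. F11r, the junctional adhesion molecule A of platelets and endothelium, was the one fall, from 7.37, 8.38 and 7.44 to 6.48, 6.58 and 5.60 (2.85-fold lower, FDR = 0.00257). Besides Anxa1, the annexin gene Anxa2 was up-regulated (3.18-fold). Of 22 genes of prostaglandin and leukotriene synthesis 4 were up-regulated (18.2%, where 10.4% of all genes were), among them Lta4h, which makes leukotriene B4 (2.78-fold, FDR = 0.000150). Under other scalings 1 to 5 were up-regulated and 0 to 3 down-regulated. Without Sham replicate 2 there were 2 up-regulated genes, without YDBS/MCAO replicate 2 1, and without Sham replicate 1 1 gene was down-regulated. The call of Cxcr6 ended with 1 other scaling (log2 FC as small as 0.97). The call of Itgam ended with 1 other scaling (log2 FC as small as 0.98). The call of F11r ended with the methods' t-test (FDR = 0.0863).

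Lymphocyte genes split within each cell type. The B cell marker Ms4a1, CD20, rose from 5.34, 4.17 and 4.94 to 7.23, 7.01 and 7.74 (5.71-fold, log2 FC 2.51 ± 0.30, FDR = 9.49e-05), whereas Cd79a, a chain of the B cell receptor complex, read 7.76, 7.85 and 7.80 and 7.81, 7.33 and 8.10 and overlapped (log2 FC -0.06, FDR = 0.829). Btk, a kinase downstream of that receptor, rose 3.33-fold and Bank1, its adaptor, 2.81-fold. In all, 6 of 21 B cell genes were up-regulated and none down-regulated. Among T cell genes 4 of 30 were up-regulated (13.3%, near the 10.4% of all genes) and none down-regulated. Il7r, the receptor of a survival cytokine of T cells, rose from 5.36, 4.21 and 5.34 to 7.83, 7.58 and 7.05 (5.71-fold), while Cd3e, the defining chain of the T cell receptor complex, read 8.49, 7.99 and 8.51 on Sham and 8.61, 8.29 and 8.31 on YDBS/MCAO arrays (log2 FC 0.07 ± 0.16, FDR = 0.715). Trat1, an adaptor of the receptor, rose 3.11-fold and the phosphatase gene Ptpn22 3.07-fold. The relative median of the T cell list was 0.25 as deposited and turned to -0.17 after quantile normalization and -0.23 after cyclic loess. Of 18 natural killer and cytotoxic genes 6 rose as deposited, and 3 after 75th percentile centring over genes. Klrk1, the activating receptor NKG2D, rose from 5.18, 4.54 and 5.24 to 7.59, 7.57 and 7.55 (5.99-fold, FDR = 5.08e-06). Gzma, granzyme A, rose from 5.26, 4.48 and 4.63 to 7.02, 7.51 and 7.66 (6.09-fold). Ncr1, the defining receptor NKp46, was 2.59-fold higher (FDR = 0.000813). Of 20 genes of antigen presentation by MHC class II 1 was called, the costimulator gene Cd86; Cd74, the invariant chain, read 10.92, 10.55 and 10.89 and 11.11, 10.76 and 11.17 (log2 FC 0.22, FDR = 0.246). With 2 of the other scalings 1 gene of this list was down-regulated. Of 12 genes of eosinophils, basophils and mast cells 2 were up-regulated (16.7%, where 10.4% of all genes were), and 1 to 4 were under other scalings. The 2 were Siglec5 (4.55-fold, FDR = 0.000134) and Ccr3, the eotaxin receptor of eosinophils (2.00-fold, FDR = 0.00254). The call of Ncr1 ended with 1 other scaling (log2 FC as small as 0.99). The call of Cd86 ended with 2 other scalings (log2 FC as small as 0.79), with array weights (0.88), with the methods' t-test (FDR = 0.0901) and without Sham replicate 2 (0.83). The call of Ccr3 ended with 2 other scalings (log2 FC as small as 0.62), with array weights (0.90), with the methods' t-test (FDR = 0.0716), without Sham replicate 2 (0.85) and without YDBS/MCAO replicate 1 (0.79).

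Genes of the type I interferon response were up-regulated in 14 of 38 cases and down-regulated in none, with a relative median of 0.82. Samd9l, an antiviral factor, had the largest rise of any ranked gene, from 5.51, 4.31 and 5.37 to 9.56, 9.46 and 8.76 (18.3-fold). Ifih1, the RNA sensor MDA5, rose from 3.93, 3.73 and 3.27 to 6.73, 6.52 and 6.19 (7.15-fold, log2 FC 2.84 ± 0.21, FDR = 4.44e-06). Ifit2 (7.43-fold) and Ifit3 (7.27-fold), which bind viral RNA, rose alike. Ifnar1, a chain of the interferon receptor, rose from 6.60, 5.49 and 6.53 to 8.22, 8.41 and 8.19 (4.18-fold), and Gbp5, a GTPase of host defence, 3.67-fold. The master regulator Irf7 was not among them: it read 9.27, 8.62 and 9.22 on Sham and 8.50, 8.79 and 8.28 on YDBS/MCAO arrays (log2 FC -0.52 ± 0.30, FDR = 0.168). Irf9, a subunit of the factor that binds interferon-stimulated genes, overlapped between groups (log2 FC 0.01, FDR = 0.965). To set these values beside the sequence, promoters were searched for the core of the interferon-stimulated response element, GAAA and GAAA with any 2 bases between, on both strands of the 250 bases before the start. It was in 15 of the 28 promoters of the list in RefSeq's table (GRCr8) and in 3.29% of all 27457 promoters. Of the 10 up-regulated genes with a promoter 5 held it, a share close to that of the whole list. The match thus did not single out the genes that rose. A match is a string of letters and says nothing of binding. The stretches below, 35 bases on each side of the match where the upstream window allows, are on the strand of the gene, 5′ to 3′, with the match in capitals; 4 are of up-regulated genes and the last is of Irf7.
Ifih1 (chr3:67683983-67684062, minus strand): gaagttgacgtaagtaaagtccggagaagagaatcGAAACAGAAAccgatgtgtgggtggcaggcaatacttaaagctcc
Ifit3 (chr1:241527247-241527325, plus strand): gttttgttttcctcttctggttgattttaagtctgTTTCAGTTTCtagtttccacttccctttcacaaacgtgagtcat
Gbp5 (chr2:233910908-233910987, plus strand): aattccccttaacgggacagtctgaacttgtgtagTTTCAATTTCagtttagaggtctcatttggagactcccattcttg
Oasl2 (chr12:47383292-47383371, minus strand): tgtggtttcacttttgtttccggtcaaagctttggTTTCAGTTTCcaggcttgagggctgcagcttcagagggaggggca
Irf7 (chr1:205800048-205800127, minus strand): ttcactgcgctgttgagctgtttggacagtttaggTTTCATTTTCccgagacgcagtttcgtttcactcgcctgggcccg
Oasl2, an antiviral gene of the oligoadenylate synthetase family, rose 3.64-fold (Sham 6.54, 6.47 and 6.45, YDBS/MCAO 8.44, 7.78 and 8.84). Gbp2, Ifi44, Rsad2 and Isg20 held the match and were not called as deposited (log2 FC 0.84, 0.62, 0.51 and 0.25). Oas1a (log2 FC -0.42, FDR = 0.0146 from limma) and Oas1b (log2 FC 0.07) held 2 matches each and were not called either. With median centring over all clusters Gbp2 was up-regulated (log2 FC 1.04). Samd9l fell to a log2 FC of 2.75 with the mean of all its clusters and was still called.

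Of 29 genes upstream of NF-kB and MAP kinases 9 were up-regulated (31.0%), and of 13 subunits and inhibitors of NF-kB 2 (15.4%), where 10.4% of all genes were. The count of subunits and inhibitors fell to 0 without Sham replicate 2, with array weights, with the methods' t-test and after 75th percentile centring over genes. Of all 72 genes of these pathways 16 were up-regulated and 1 down-regulated. Without Sham replicate 2 10 were up-regulated, as with array weights and with the methods' t-test, and under other scalings 7 to 19 were up-regulated and 0 to 3 down-regulated. Nfkb1, a subunit of NF-kB made from the p105 precursor, read 7.42, 6.68 and 7.47 on Sham and 8.14, 8.07 and 8.13 on YDBS/MCAO arrays. At 1.90-fold (log2 FC 0.92 ± 0.20, FDR = 0.00358) it lay just under the fold criterion. It passed without Sham replicate 1 (log2 FC 1.04), without Sham replicate 3 (1.06) and with median centring over genes (1.003) or over all clusters (1.13). Egfr, the receptor of epidermal growth factor, was the one fall, from 5.42, 5.48 and 5.69 to 4.45, 4.33 and 4.64 (2.08-fold lower, FDR = 0.000148). Its call ended without Sham replicate 3 (log2 FC -0.98) and without YDBS/MCAO replicate 2 (-0.99). It ended also with median centring over genes (-0.98) or over all clusters (-0.86) and with cyclic loess (-0.996). Rela, the other main subunit of NF-kB, overlapped (log2 FC 0.18, FDR = 0.288). Rps6ka3, a kinase downstream of ERK, rose from 5.05, 4.40 and 4.73 to 7.60, 7.82 and 7.64 (7.78-fold, FDR = 2.18e-06). The small GTPase gene Rap1a was 4.69-fold higher, the exchange factor genes Sos2 and Sos1 4.05-fold and 3.05-fold, and the kinase genes Map3k7 and Map2k4 3.23-fold and 3.05-fold. In the apoptosis list 11 of 36 genes were up-regulated and none down-regulated as deposited, 5 and 1 after 75th percentile centring over genes, and 7 and 0 after quantile normalization. Both sides of the pathway were among them: Bcl2 (5.38, 4.89 and 5.04 on Sham, 7.16, 7.20 and 7.17 on YDBS/MCAO arrays, 4.20-fold) and Xiap (3.30-fold) oppose cell death, and Apaf1 (2.82-fold) and Ripk3 (2.89-fold) promote it. Outside these lists, Bcap29, of the endoplasmic reticulum, rose from 3.60, 3.68 and 3.92 to 6.49, 6.47 and 6.56, Acap2, which acts on the GTPase Arf6, from 4.99, 4.76 and 4.92 to 7.53, 7.68 and 7.57, and the RNA helicase gene Ddx1 from 4.71, 4.65 and 4.71 to 5.99, 5.95 and 5.95. All 3 were separated between groups by more than 1 log2 unit; the call of Ddx1 ended with centring on the 75th percentile of genes (log2 FC 0.89).

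The wider list of chaperones shares members with the list of the glucocorticoid receptor. This wider list had 20 of 43 genes up-regulated and none down-regulated, with a relative median of 0.85. After 75th percentile centring over genes 1 was down-regulated. Dnaja1, a partner of Hsp70, rose from 4.93, 4.31 and 4.77 to 8.33, 8.66 and 8.80 (15.2-fold, FDR = 1.97e-06). Dnajc7 rose from 5.16, 3.95 and 4.80 to 7.19, 7.22 and 7.46 (6.29-fold). Of the chaperones of the endoplasmic reticulum, Hspa5, also known as BiP, rose from 6.94, 6.34 and 6.84 to 8.69, 8.90 and 8.73 (4.19-fold), and Hsp90b1, also known as Grp94, 4.87-fold. The cytosolic chaperones Hspa4 and Hsph1 were 4.39-fold and 3.88-fold higher. The heat shock element GAA, TTC and GAA with any 2 bases between each, which the heat shock factor binds, was in 4 of the 37 promoters of the list, of Hspa8, Hspd1, Hspe1 and Hsph1, and in 0.597% of all promoters. Hspd1 and Hspe1, the mitochondrial chaperonin and its lid, lie head to head and share one such stretch, shown here for the strand of Hspe1, beside that of Hsph1. Capitals mark the matches, 2 that overlap in the first and 1 in the second.
Hspe1 and Hspd1 (chr9:64084227-64084314, plus strand): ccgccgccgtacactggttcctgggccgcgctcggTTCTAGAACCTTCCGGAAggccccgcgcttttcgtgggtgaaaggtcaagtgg
Hsph1 (chr12:10427297-10427367, plus strand): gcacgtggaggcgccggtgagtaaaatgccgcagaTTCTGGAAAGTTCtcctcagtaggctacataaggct
From the 2 sides of this shared stretch the arrays gave different results. Hspd1 read 4.96, 4.59 and 4.06 on Sham and 6.03, 5.96 and 6.07 on YDBS/MCAO arrays (2.79-fold, FDR = 0.000342), and Hspe1 read 6.76, 6.79 and 6.67 and 6.49, 6.54 and 6.78, with overlap (log2 FC -0.14 ± 0.12, FDR = 0.359).

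RNA processing was the list with the most calls, 54 of 116 genes up-regulated and none down-regulated (46.6%, where 10.4% of all genes were), at a relative median of 1.03. Of 46 core spliceosome genes 22 rose, of 35 SR proteins and hnRNPs 20, and of 35 genes of the nuclear pore and export 12. Sarnp, of the mRNA export complex, rose from 4.51, 3.22 and 4.36 to 7.88, 8.07 and 8.39 (17.0-fold). Tpr, of the nuclear basket, read 4.78, 4.78 and 4.94 on Sham and 7.82, 7.72 and 7.67 on YDBS/MCAO arrays (7.47-fold, log2 FC 2.90 ± 0.12, FDR = 8.52e-07), with little spread in either group. Rbm39, a splicing coactivator, rose from 5.55, 4.69 and 5.57 to 7.92, 8.38 and 8.35 (7.72-fold). Sf3b1, which selects the branch point, was 4.47-fold higher, Luc7l2, of the U1 particle, 5.87-fold, Hnrnpa2b1 5.87-fold and Hnrnpu 5.10-fold. Under other scalings 36 to 62 of the 116 were up-regulated and none down-regulated, and of the SR proteins and hnRNPs 12 to 23. Of 14 genes of condensin, cohesin and the related complex of Smc6, which organise chromosomes, 9 were up-regulated. Smc4 rose from 3.09, 2.89 and 3.42 to 6.83, 6.61 and 6.61 (11.7-fold, FDR = 1.13e-06), Stag2 6.29-fold, Smc6 5.27-fold and Smc3 4.53-fold. Among 27 markers of dividing cells 4 were up-regulated (14.8%, where 10.4% of all genes were), 1 to 5 under other scalings and 2 with the methods' t-test. Of these markers 1 was down-regulated without Sham replicate 2 or YDBS/MCAO replicate 2 and with 4 other scalings. As deposited, Mki67 was 4.07-fold higher (Sham 4.61, 3.61 and 4.53, YDBS/MCAO 6.11, 6.47 and 6.25).

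Other parts of cell metabolism showed fewer calls. Of 35 genes of glycolysis and the hypoxia response 6 were up-regulated, and 3 to 7 under other scalings. Without Sham replicate 2 and with 4 other scalings 1 was down-regulated. Hif1a, the oxygen-sensitive transcription factor, rose from 5.75, 4.54 and 5.63 to 8.09, 7.84 and 7.92 (6.25-fold, log2 FC 2.64 ± 0.26, FDR = 2.93e-05), Kdm3a, a demethylase that it induces, 3.80-fold and P4ha1, a collagen hydroxylase, 3.08-fold. The glucose transporter Slc2a1 had a log2 FC of 0.73 and hexokinase 2, Hk2, of 0.43, both above all Sham arrays and under the fold criterion. Of 149 genes with a symbol of a cytosolic ribosomal protein 6 were up-regulated and 4 down-regulated, and of 81 genes of the respiratory chain 5 and 1, with relative medians of 0.02 and 0.09 that turned negative after quantile normalization and cyclic loess. The balance of calls turned as well. Under other scalings 5 to 15 ribosomal protein genes were up-regulated and 1 to 12 down-regulated, with 5 and 12 after 75th percentile centring over genes. Without Sham replicate 1, 11 were up-regulated, and without Sham replicate 2, 1 was down-regulated. For the respiratory chain the numbers were 2 and 7 after 75th percentile centring over genes, 2 and 4 after quantile normalization or cyclic loess, and 0 down-regulated without Sham replicate 2 or YDBS/MCAO replicate 1 and 2 without YDBS/MCAO replicate 2. Of 16 clock genes only Clock itself was called as deposited (2.30-fold). Its call ended without Sham replicate 2 (log2 FC 0.98), with the methods' t-test and after 75th percentile centring.

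**Figure D3:**
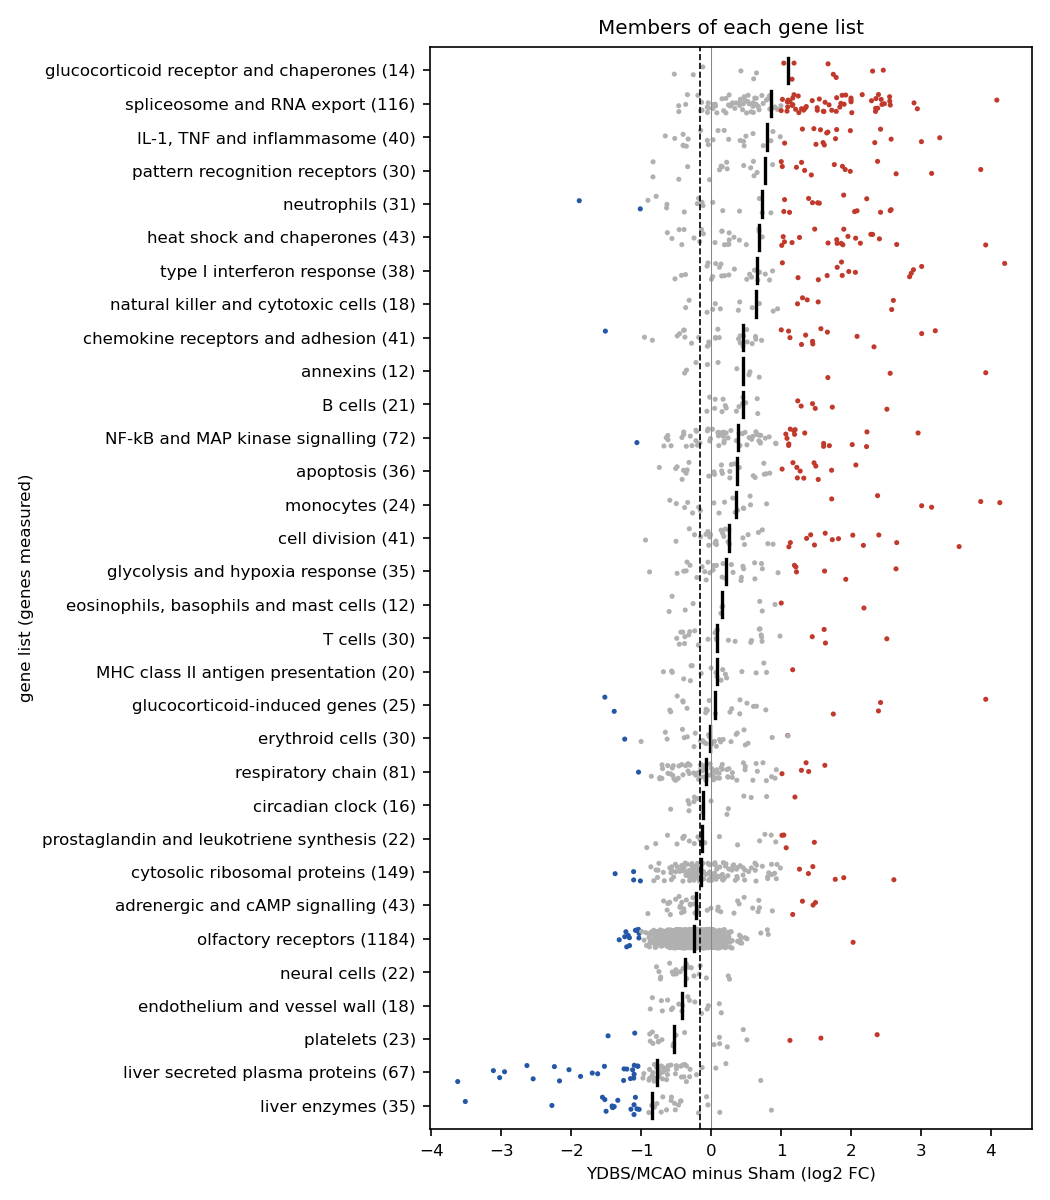
The log2 FC of each measured member (points) of 32 gene lists, ordered by the list's median (black bars), with up-regulated members in red, down-regulated ones in blue and the median of all genes as a dashed line. The list of the glucocorticoid receptor and its chaperones and that of RNA processing lie highest, and the 2 liver lists lie lowest, with medians of -0.78 and -0.85.

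Genes of the liver were down-regulated in YDBS/MCAO blood. Of 67 genes of plasma proteins that the liver secretes 23 were down-regulated and none up-regulated, and of 35 genes of liver enzymes 16 and none, against 0.919% of all genes down-regulated. Under other scalings 13 to 48 and 10 to 23 were down-regulated, and with the dimmest 40% of genes left out of the test 7 and 8. That filter, by the mean over the 9 arrays, takes dim members out of the test. Of the named calls of this report, all 138 that stayed in the test were kept. The exceptions to the direction were Acsl1, which activates fatty acids, and F5, coagulation factor V, with log2 FC of 0.86 and 0.71 as deposited and no call. Acsl1 was up-regulated with median centring over all clusters, without Sham replicate 1 and without Sham replicate 3 (log2 FC at most 1.13), and F5 without YDBS/MCAO replicate 3 (1.02). Alb, albumin, the defining marker, read 5.31, 4.73 and 5.27 on Sham and 3.33, 3.02 and 3.37 on YDBS/MCAO arrays (3.64-fold lower, log2 FC -1.87 ± 0.17, FDR = 1.57e-05). Vtn, vitronectin, fell from 6.37, 5.59 and 6.24 to 3.01, 2.59 and 3.27 (8.64-fold), Hpx, hemopexin, the heme carrier, from 5.78, 5.68 and 5.98 to 3.72, 3.37 and 3.63 (4.72-fold), and Ttr, transthyretin, from 7.37, 7.30 and 7.10 to 4.17, 4.15 and 4.39 (8.12-fold). Among enzymes, Cyp2e1 fell from 7.44, 7.16 and 7.05 to 3.77, 3.57 and 3.78 (11.4-fold, FDR = 8.52e-07), Cps1, the first enzyme of the urea cycle, from 5.71, 5.41 and 5.97 to 3.56, 3.43 and 3.27 (4.84-fold), and Elovl2, which elongates fatty acids, from 4.86, 4.95 and 4.88 to 3.42, 3.47 and 3.58 (2.65-fold). On YDBS/MCAO arrays these genes read between 2.59 and 4.39, where the median gene read 4.39 to 4.43. The summed linear signal of the 67 genes was 2354 to 3255 on Sham and 1611 to 2171 on YDBS/MCAO arrays, and that of the 35 enzymes 876 to 1071 and 488 to 532. Sham arrays differed among themselves: Apoe read 9.04, 6.45 and 8.87 and Fgg, the gamma chain of fibrinogen, 6.67, 3.71 and 5.63, each lowest in replicate 2, whereas Ttr and Cyp2e1 spread far less. The 12.3-fold fall of Apoe became a log2 FC of -4.46 without that array and -4.25 with array weights, and the 7.74-fold fall of Fgg -3.77 without replicate 2 and -2.28 without replicate 1. The methods' t-test called neither (FDR = 0.0551 and 0.0838). Among other falls, Apob was 6.20-fold lower, Fgb, the beta chain of fibrinogen, 4.49-fold and Rbp4, the retinol carrier, 4.08-fold. Mir122, the gene of the main miRNA of hepatocytes, overlapped (log2 FC 0.01, FDR = 0.978). The source of this RNA was not tested. Against QDBS/MCAO none of these genes was called, for example Ttr with a log2 FC of -0.04 (FDR = 0.986) and Alb with -0.11 (FDR = 0.942).

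**Figure D4:**
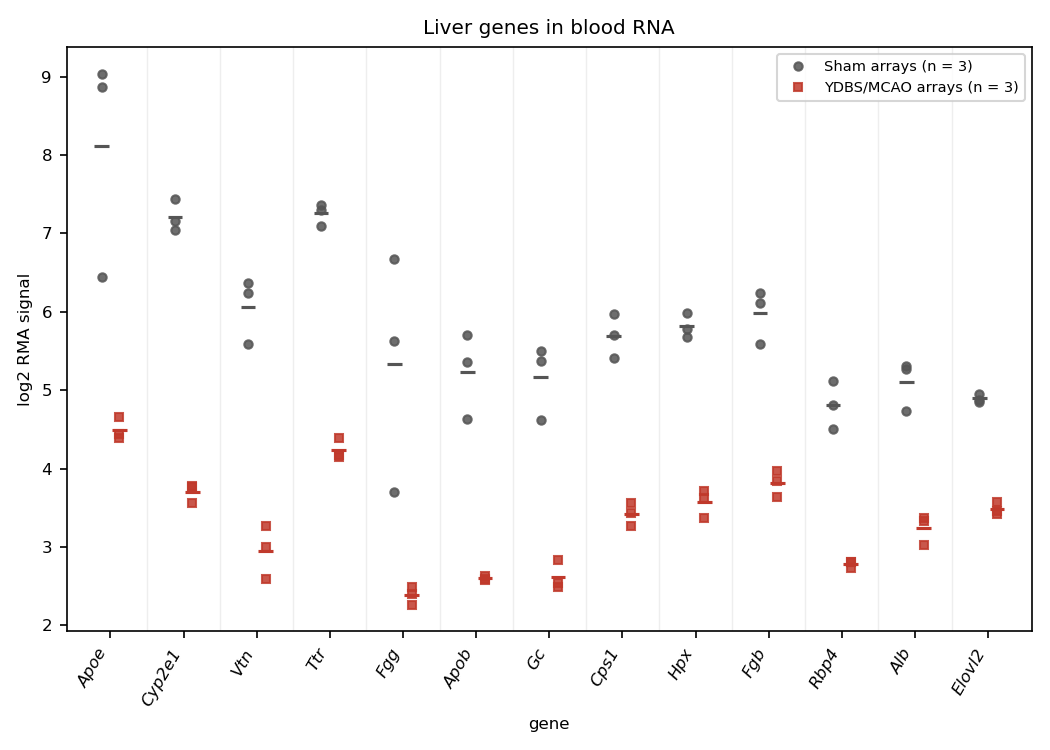
Log2 signal of each Sham and YDBS/MCAO array (points) and group mean (bars) for liver genes. Every YDBS/MCAO array lies below every Sham array, and Sham arrays spread widest for Apoe and Fgg.

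Most platelet and red cell genes were not called. Of 23 platelet genes 3 were up-regulated (13.0%, near the 10.4% of all genes) and 2 down-regulated, at a relative median of -0.37. Under other scalings 2 to 3 were up-regulated and 1 to 10 down-regulated, with 10 down-regulated after 75th percentile centring over genes and 8 after quantile normalization or cyclic loess. Without YDBS/MCAO replicate 1, 5 were down-regulated, without YDBS/MCAO replicate 3, 1, and with the methods' t-test 0. Slc6a4, the serotonin transporter, fell from 9.60, 9.46 and 9.54 to 8.93, 8.06 and 7.19 (2.77-fold lower, FDR = 0.00451), and Gp5, of the receptor of von Willebrand factor, from 10.73, 10.66 and 10.67 to 9.94, 9.997 and 8.86 (2.13-fold). In both genes YDBS/MCAO replicate 3 was the lowest array. Itga2b, the defining integrin, read 10.68, 11.08 and 10.75 and 10.51, 10.11 and 9.39 (log2 FC -0.84 ± 0.26, FDR = 0.0242), below the criterion of fold as deposited. It was down-regulated after 75th percentile centring over genes (log2 FC -1.22) or over all clusters (-1.04). Quantile normalization (-1.05), cyclic loess (-1.06) and leaving out YDBS/MCAO replicate 1 (-1.09) also gave the call. Pf4, platelet factor 4, had a log2 FC of -0.50 (FDR = 0.0799). Rgs18, a regulator of platelet activation, rose against this from 7.60, 7.92 and 7.57 to 10.15, 10.33 and 9.73 (5.18-fold, FDR = 0.000291), and Selp, P-selectin, from 4.68, 4.63 and 5.07 to 6.12, 6.44 and 6.53 (2.97-fold, FDR = 2.52e-05). Of 30 erythroid genes 1 was up-regulated and 1 down-regulated, 0 to 2 and 1 to 4 under other scalings, and 0 to 2 and 1 to 2 with 1 array left out, where each of the 6 arrays moved a count. Hbb-b1, a beta globin, read 12.17, 12.07 and 12.24 on Sham and 12.12, 12.17 and 11.75 on YDBS/MCAO arrays (log2 FC -0.15, FDR = 0.458). As deposited, no gene of the endothelium (18) or of neural cells (22) was called, although 9 and 11 were lower by the FDR alone. By that criterion 25.3% of all genes were lower. After 75th percentile centring over genes 5 endothelial and 4 neural genes were down-regulated, and 1 endothelial gene after quantile normalization, after cyclic loess or without YDBS/MCAO replicate 1. Their defining markers Cdh5 and Gfap were dim, at 3.92, 4.001 and 3.65 and 3.79, 4.16 and 4.10 on Sham and 3.34, 3.34 and 3.25 and 3.30, 3.63 and 3.47 on YDBS/MCAO arrays. The 1184 genes with the symbol pattern of olfactory receptors, which blood cells hardly transcribe, held 12 down-regulated genes (1.01%), 1 to 102 under other scalings and 5 to 24 with 1 array left out, the fewest without Sham replicate 2 and the most without Sham replicate 1 or 3. The 1 up-regulated gene with that pattern, Olr1, is no olfactory receptor but the receptor of oxidized LDL, and rose 4.08-fold (FDR = 0.000499). The call of Slc6a4 ended with the methods' t-test (FDR = 0.110). The call of Gp5 ended with 1 other scaling (log2 FC as small as -0.89), with the methods' t-test (FDR = 0.108) and without YDBS/MCAO replicate 3 (-0.72).

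Called genes were also set beside signal and genomic length. The median signal over the 9 arrays was 5.99 for up-regulated, 4.42 for down-regulated and 4.47 for all genes. That mean includes the arrays whose level made the call, and on the Sham arrays alone the medians were 4.92, 5.23 and 4.50, with the down-regulated genes brightest. The Sham arrays entered the call as well, so neither set of medians is independent of it. Over 5 equal classes of the mean signal over the 9 arrays, from the dimmest to the brightest, the share up-regulated was 0.275%, 0.963%, 6.28%, 20.3% and 24.2%, while the share down-regulated stayed between 0.468% and 1.16%. The median genomic span in RefSeq, introns included, was 36.9 kb for up-regulated, 10.3 kb for down-regulated and 17.2 kb for all genes. Over 5 equal classes of span, from the shortest, the share up-regulated was 1.49%, 5.52%, 10.9%, 17.6% and 16.6%. These are descriptions over genes, which are not replicates. The brightest genes differed little: Rpph1, the RNA of RNase P, read 12.26, 12.29 and 12.29 on Sham and 12.25, 12.27 and 12.37 on YDBS/MCAO arrays, and B2m, the light chain of MHC class I, 12.08, 12.09 and 12.02 and 12.17, 12.22 and 12.12. Lyz2, lysozyme, was 1.47-fold higher (FDR = 0.00196), COX3, of mitochondrial cytochrome oxidase, 1.23-fold and Npy, neuropeptide Y, 1.63-fold lower (FDR = 0.0636 and 0.0450), all under the criterion of fold as deposited. Npy was down-regulated after 75th percentile centring over genes (log2 FC -1.09).

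The direct comparison with QDBS/MCAO showed where the hormone group differed from the group that swam before its stroke. Of 18166 genes 60 were higher in YDBS/MCAO (0.33%) and none lower; at an unadjusted p under 0.05 and the same fold 164 were higher and 11 lower, and the methods' t-test called none in either direction. Of the 60 genes 36 were also up-regulated against Sham and 54 were higher than Sham by the FDR alone. Neutrophil genes supplied 4 of the 60, Cxcr2, Csf3r, Padi4 and Il1r2. Siglec8 read 8.29, 6.39 and 7.64 on QDBS/MCAO and 9.46, 9.83 and 10.29 on YDBS/MCAO arrays (5.34-fold, log2 FC 2.42 ± 0.42, FDR = 0.0412). Clec4b2, a lectin of myeloid cells, read 4.26, 3.81 and 4.55 and 5.51, 6.26 and 6.71 (3.87-fold, FDR = 0.0236). Il1r2 read 6.60, 7.17 and 7.60 and 8.31, 9.30 and 9.25 (3.54-fold, FDR = 0.0327). In these genes the QDBS/MCAO arrays lay between Sham and YDBS/MCAO or reached into Sham. Selp was different, with 4.69, 4.64 and 4.50 on QDBS/MCAO and 4.68, 4.63 and 5.07 on Sham arrays, both well below the 6.12, 6.44 and 6.53 of YDBS/MCAO (3.37-fold, FDR = 0.00384). Bmx, a kinase of myeloid and endothelial cells, was 3.41-fold higher, Wfdc15b, a protein with a protease inhibitor domain, 3.34-fold, Serpinb10 3.26-fold, the ion transporter gene Slc12a2 3.08-fold, Tns1, tensin 1 of cell adhesion, 2.89-fold and Ampd3, AMP deaminase, 2.87-fold. Cxcr2 was 2.41-fold, Ly96, the partner of Tlr4, 2.47-fold and Il1rap 2.21-fold higher. The glucose transporter Slc2a3 was 2.36-fold higher, and Ccl2, a chemokine that draws monocytes, 2.87-fold, although Ccl2 was not called against Sham (log2 FC 0.42). Mir223 (6.23, 5.95 and 7.40 on QDBS/MCAO arrays, log2 FC 1.76 ± 0.38, FDR = 0.0792), S100a8 (log2 FC 1.52, FDR = 0.0621) and Il1b (1.25, FDR = 0.0985) had differences of similar size that did not pass. These calls were fragile: without QDBS/MCAO replicate 1, QDBS/MCAO replicate 2 or YDBS/MCAO replicate 2 only 1, 0 and 3 genes were called, and with only these 2 groups in the fit 3. Without YDBS/MCAO replicate 3 there were 36, without QDBS/MCAO replicate 3 90 and without YDBS/MCAO replicate 1 105.

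**Figure D5:**
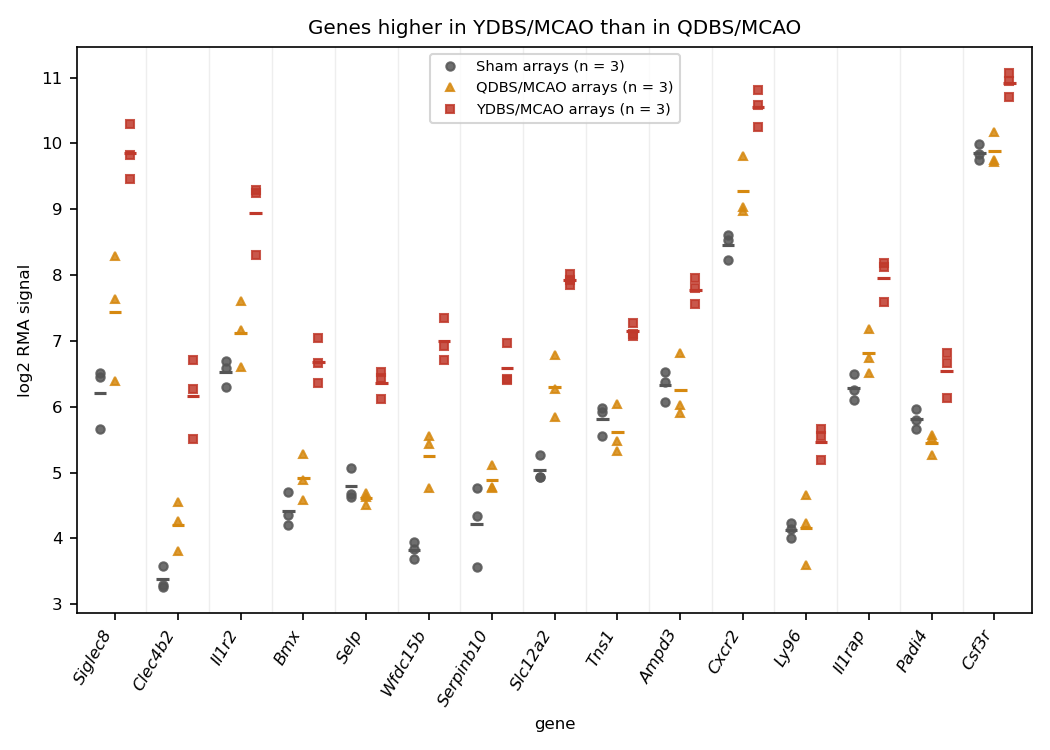
Log2 signal of each Sham, QDBS/MCAO and YDBS/MCAO array (points) and group mean (bars) for genes called higher in YDBS/MCAO than in QDBS/MCAO. Every YDBS/MCAO array lies above every QDBS/MCAO array, and QDBS/MCAO arrays of Csf3r, Padi4, Selp, Tns1 and Ampd3 lie near or below those of Sham.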

How the data were processed

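Blood RNA of 9 rats was hybridised to Affymetrix Rat Gene 2.0 ST arrays. The deposited values are log2 signals that the authors made by RMA (Affymetrix Expression Console 1.1, per the labels), which corrects background, normalizes arrays by quantiles and summarises probes, and it can compress changes of dim genes. Of 30347 transcript clusters 18511 had 1 symbol, 575 several and 11261 no annotation entry; 18166 genes remained, and for 291 of them the brightest of several clusters was kept. One limma fit (3.58.1, R 4.3.3) held the 3 group means of all 9 arrays, with 6 residual degrees of freedom, and FDR is Benjamini-Hochberg over all genes. It was tested on simulated data. The precision is limited by 3 arrays a group. No batch is given in the sources used here. P-values from limma set a group difference against the spread between these arrays within groups, which limma moderates over genes.

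The members and gene lists were chosen with earlier results of these data known. Named genes are the 10 largest changes per direction without overlap, up to 6 called members per list and direction, defining markers, the brightest genes and genes the study named. Other genes were named after their values were seen, among them the uncalled list members. Gene counts and list medians stand in place of a list test. The alternatives were scalings, a filter on dim genes, cluster choice, other fits, the methods' t-test, a replicate block and leaving out each array. Centring over all clusters was added after seeing the data. Promoters and miRNAs came from RefSeq (GRCr8).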

Additional observations from a re-analysis of the deposited data

Results flagged for a closer look

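In the direct comparison with QDBS/MCAO, the response of 17 named genes against the shared Sham arrays differed between the stroke groups by the limma test of the difference itself. On the log2 scale YDBS/MCAO exceeded QDBS/MCAO by 2.42 for Siglec8, 1.95 for Clec4b2, 1.83 for Il1r2, 1.77 for Bmx, 1.75 for Selp and 1.74 for Wfdc15b. It exceeded it by 1.70 for Serpinb10, 1.62 for Slc12a2, 1.53 for Tns1, 1.52 for Ampd3, 1.52 for Ccl2 and 1.30 for Ly96. The remaining differences were 1.27 for Cxcr2, 1.24 for Slc2a3, 1.15 for Il1rap, 1.09 for Padi4 and 1.03 for Csf3r. All 17 calls ended with the methods' t-test and without QDBS/MCAO replicate 2, and 16 ended without QDBS/MCAO replicate 1, without YDBS/MCAO replicate 2 or with only the 2 groups in the fit.

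Outside the named genes, 401 of the 11261 transcript clusters with no annotation entry were higher in YDBS/MCAO than in Sham by the same criteria (3.56%), and 228 were lower (2.03%).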

How the results depend on the processing

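Up-regulated genes numbered 1892 as deposited, 1081 with centring on the 75th percentile of genes and 3723 with the FDR alone, and 1549 to 2092 when 1 array was left out. Down-regulated genes numbered 167 as deposited, 1637 with that centring, 484 after quantile normalization, 253 after cyclic loess, 108 without the dimmest 40% of genes, 96 with the methods' t-test, 405 over all transcript clusters, 4602 with the FDR alone and 144 to 258 when 1 array was left out. With centring over all clusters, added after seeing the data, 68 genes were lower at the array median and 550 at the 75th percentile. That median centring moved the median of all genes by 0.20, and the 75th percentile of genes by -0.38. The cause of these shifts was not tested. Genes called against QDBS/MCAO in either direction numbered 60 as deposited, all of them higher. They numbered 28 after quantile normalization, 3 with only the 2 groups, 103 with array weights, 0 with the methods' t-test and 0 to 105 when 1 array was left out. Members called in the gene lists numbered 303, and both directions together stayed within 1.5 times of that, but the down-regulated ones did not. Up-regulated members numbered 240 as deposited and between 160 and 282 under other scalings, and down-regulated ones 63 and between 34 and 239, with 160 and 239 after centring on the 75th percentile of genes. Single lists that moved are given with their results. Of 147 named calls against Sham 119 held under every alternative that tested the gene, 28 were lost under at least 1 and none was reversed. Equal replicate numbers did not pair the arrays (correlations of -0.1, -0.145 and 0.002), and with the replicate block 1890 genes were up-regulated, 166 down-regulated and 44 called against QDBS/MCAO in either direction. Dim genes give small folds on this scale, and 3 arrays a group limit the precision.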
